A study of Mus musculus with 8 samples.

Results

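The 41 genes described here encode nucleolar proteins that make ribosomes. They were chosen by name from the 28011 genes of a single-cell RNA count table, with earlier results of these data known. Cells carrying CD31, a surface protein of endothelium and of newly formed blood cells, were sorted from the aorta-gonad-mesonephros region (AGM) of mouse embryos at embryonic day 10.5. Their RNA was counted with surface antibody tags (CITE-seq, 10x Genomics 3′ chemistry), and each count is a unique molecular identifier (UMI), that is 1 captured RNA molecule. There were 8 libraries with 15168 cells: 5 libraries of wild type (WT) embryos with 8423 cells, and 3 labelled Meis1-flox/VE-Cre, called Mff_Cre, with 6745 cells. In Mff_Cre embryos both Meis1 alleles were floxed and Cre was driven by the VE-Cadherin promoter, which is active in endothelium and is inherited by the blood cells that endothelium forms. The labels give C57BL/6 as the strain of the WT embryos and Meis1-flox/VE-Cre as that of the others, so that strain background and Meis1 loss cannot be told apart. The study also calls Cre-negative littermates wild type, and the cells of WT 5 alone carry names that begin with Mf, so whether that library has floxed alleles is not given. Each library pooled cells of several embryos of 1 genotype, and the p-values measure the spread between such pools.

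Ribosomes are assembled in the nucleolus. RNA polymerase I transcribes the long ribosomal RNA precursor there, and small nucleolar ribonucleoproteins (snoRNPs) modify its nucleotides. Large sets of assembly factors cut the precursor and fold it into the small and the large subunit. Transcription of these genes is known to rise with cell growth and to respond to the Myc family of transcription factors. The ribosomal proteins themselves are not among the 41 genes, because their counts differ between libraries in this table. By role the genes comprise 6 of RNA polymerase I and its regulators, 3 of the box C/D snoRNP, 4 of the box H/ACA snoRNP, 3 nucleolar chaperones, 13 factors of the small subunit and 12 of the large subunit. All 41 were rows of the table.

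Promoters are shown for 3 genes because the members moved together across cell types. RefSeq (GRCm38.p6) gave a window for 36 of the 41 genes, and the 250 bases before the start were searched on both strands. The E box CACGTG, the core sequence bound by Myc with Max, was found in 2 of 36 genes (5.56%), against 6.86% of 27025 genes with a window. A gene with more than 1 window was counted if any of them held the motif. The GC box GGGCGG was found in 23 of 36 (63.9%), against 35.4% of all. The 27025 genes were not limited to genes expressed here, nor matched to the members in base content. Npm1, Fbl, Bop1, Rrp12 and Rrs1 had no window. The NRF1 motif was in 0 of 36 against 0.877% of all, and the ZNF143 motif in 0 of 36 against 0.285%. Such matches describe letters, not binding. Nop2 is shown for its E box, Nop56 for a GC box and Dkc1 as a window with neither; each lies upstream of the start and overlaps no other RefSeq gene, and capitals mark the E box or the GC box in either orientation. Nop2 lies at chr6:125131633-125131882, Nop56 at chr2:130274162-130274411 and Dkc1 at chrX:75095604-75095853, all on the plus strand.
Nop2: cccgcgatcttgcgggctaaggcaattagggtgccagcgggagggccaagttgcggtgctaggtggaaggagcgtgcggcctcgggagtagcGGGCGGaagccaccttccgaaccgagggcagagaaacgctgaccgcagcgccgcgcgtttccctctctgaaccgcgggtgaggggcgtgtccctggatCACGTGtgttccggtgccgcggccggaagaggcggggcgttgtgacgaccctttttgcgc
Nop56: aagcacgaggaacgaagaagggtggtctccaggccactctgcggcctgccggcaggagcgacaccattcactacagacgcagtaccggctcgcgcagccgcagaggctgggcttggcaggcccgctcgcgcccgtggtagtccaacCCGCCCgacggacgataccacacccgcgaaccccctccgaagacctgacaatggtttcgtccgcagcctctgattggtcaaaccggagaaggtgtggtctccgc
Dkc1: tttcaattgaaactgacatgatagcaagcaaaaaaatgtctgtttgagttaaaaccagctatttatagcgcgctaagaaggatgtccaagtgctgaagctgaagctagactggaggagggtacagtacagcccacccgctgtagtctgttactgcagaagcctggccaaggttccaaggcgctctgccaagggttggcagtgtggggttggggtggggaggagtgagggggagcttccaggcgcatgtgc

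Cell types are the 10 clusters that the authors named from the RNA of the same cells: arterial endothelium (aEC), pre-hemogenic endothelium (pre-HE), cells in the endothelial-to-hematopoietic transition (EHT), 4 venous endothelial clusters (vEC_1 to vEC_4, together vEC), erythro-myeloid progenitors (EMP), Myeloid cells and Megakaryocytes. Whether the members were among the variable genes used for clustering is not given in the sources used here, so differences between clusters may not be independent of how they were drawn. For each cell type the UMIs of a library's cells were added up, and a level is in CPM, the counts scaled to a fixed total of that sum, and so a share of the RNA captured. Cells whose other RNA fell cannot thereby be told from cells whose member RNA rose. Totals were 20484881 to 79429129 UMIs per library, with medians of 26572 to 28553 UMIs per cell in WT 1 to WT 4 and 9612 to 14895 in WT 5 and the 3 Mff_Cre libraries. Depth and genotype were thus nearly aligned. Of 15135 distinct barcodes, 33 were found in more than 1 library. Endothelial markers summed to 4036 to 4654 CPM in WT pre-HE and 2669 to 3208 CPM in aEC, against 371 to 777 CPM in EHT, and blood markers reached 596 to 790.4 CPM in EHT. Arterial markers summed to 309 to 445 CPM in aEC but 1517 to 1998 CPM in pre-HE, and the arterial connexin gene Gja5 was nearly absent from aEC (0 to 4.29 CPM). Against vEC, 4 of 4 tested arterial markers were called higher in aEC and 4 of 4 venous markers lower. In that comparison 29.2% of 11345 genes were called higher and 30.5% lower. Below, aEC is used as the name of the cluster. Meis1, the deleted gene, had 77, 60.3, 56.7, 69.4 and 64.9 CPM in EMP of WT 1 to WT 5 and 20.9, 36.4 and 25.4 CPM in the Mff_Cre libraries. In pre-HE its levels overlapped, at 12.9 to 51.4 CPM in WT and 9.57 to 53 CPM in Mff_Cre, and 3′ tags outside the floxed part would not show a deletion.

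The summed level of the 41 genes was lowest in pre-HE and highest in EMP in WT. It was 4082, 4486, 4376, 4362 and 5588 CPM in pre-HE of WT 1 to WT 5, with WT 5 above the other libraries. In aEC it was 6169, 6522, 6049, 5992 and 7390.3 CPM, higher than in pre-HE of the same library each time. In EHT it was 16389.6, 15608, 16105, 15046 and 15019 CPM, and in EMP 18417, 18724, 18502, 18191 and 18580.1 CPM, the narrowest of the cell types in relative terms. From lowest to highest the means were 4579 ± 583 CPM (SD, n = 5) in pre-HE, 6424 ± 578 CPM (SD, n = 5) in aEC, 8078 ± 1743 CPM (SD, n = 4) in Megakaryocytes, 8293 ± 365 CPM (SD, n = 5) in vEC_4, 9867 ± 391 CPM (SD, n = 5) in vEC_1, 11687 ± 173 CPM (SD, n = 5) in vEC_3, 12259.9 ± 335 CPM (SD, n = 5) in vEC_2, 12449 ± 1678 CPM (SD, n = 5) in Myeloid cells, 15634 ± 616 CPM (SD, n = 5) in EHT and 18483 ± 198 CPM (SD, n = 5) in EMP. Neighbours whose library ranges overlapped were aEC and Megakaryocytes, Megakaryocytes and vEC_4, vEC_3 and vEC_2, and vEC_2 and Myeloid cells. The other neighbours did not overlap. Within libraries, Megakaryocytes were above aEC in 3 of 4, but vEC_4 was above Megakaryocytes in only 1 of 4. vEC_2 was above vEC_3 in 5 of 5 libraries and Myeloid cells above vEC_2 in 3 of 5. Within libraries the log2 ratio to aEC was -0.49 ± 0.08 (SD, n = 5) for pre-HE, 1.29 ± 0.16 (SD, n = 5) for EHT and 1.53 ± 0.12 (SD, n = 5) for EMP.

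**Figure D1:**
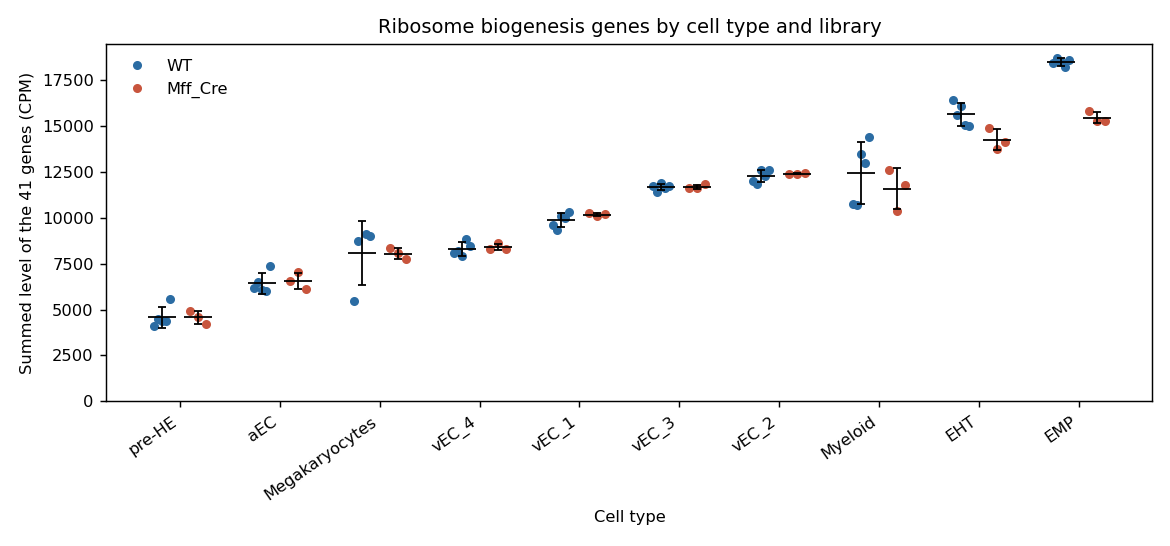
Summed level of the 41 genes in CPM (vertical axis) in each cell type (horizontal axis). Each point is 1 library, WT in blue and Mff_Cre in red, and bars are the mean ± SD; pre-HE is lowest and EMP highest in both genotypes, and the genotypes do not overlap in EMP and, more narrowly, in EHT.

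Single genes followed the sum. Of the 41, 36 had their highest WT mean in EMP and 5 in EHT (Polr1a, Nop14, Nob1, Noc2l and Noc3l). Their lowest mean was in pre-HE for 36, in aEC for 4 (Polr1a, Nop58, Utp20 and Rrs1) and in Megakaryocytes for Polr1c, a subunit that polymerase I shares with polymerase III. Polr1c had the smallest ratio of EMP to pre-HE, 1.59. A pair of chaperones made up most of the sum: Npm1, nucleophosmin, and Ncl, nucleolin, gave 57.5 to 60.3% of member UMIs in WT EMP and 51.8 to 57.8% in pre-HE. The remaining 39 genes gave 1839 to 2575 CPM in pre-HE, 2287 to 3161 CPM in aEC, 5997 to 7202 CPM in EHT and 7229 to 7891 CPM in EMP, the same order.

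**Figure D2:**
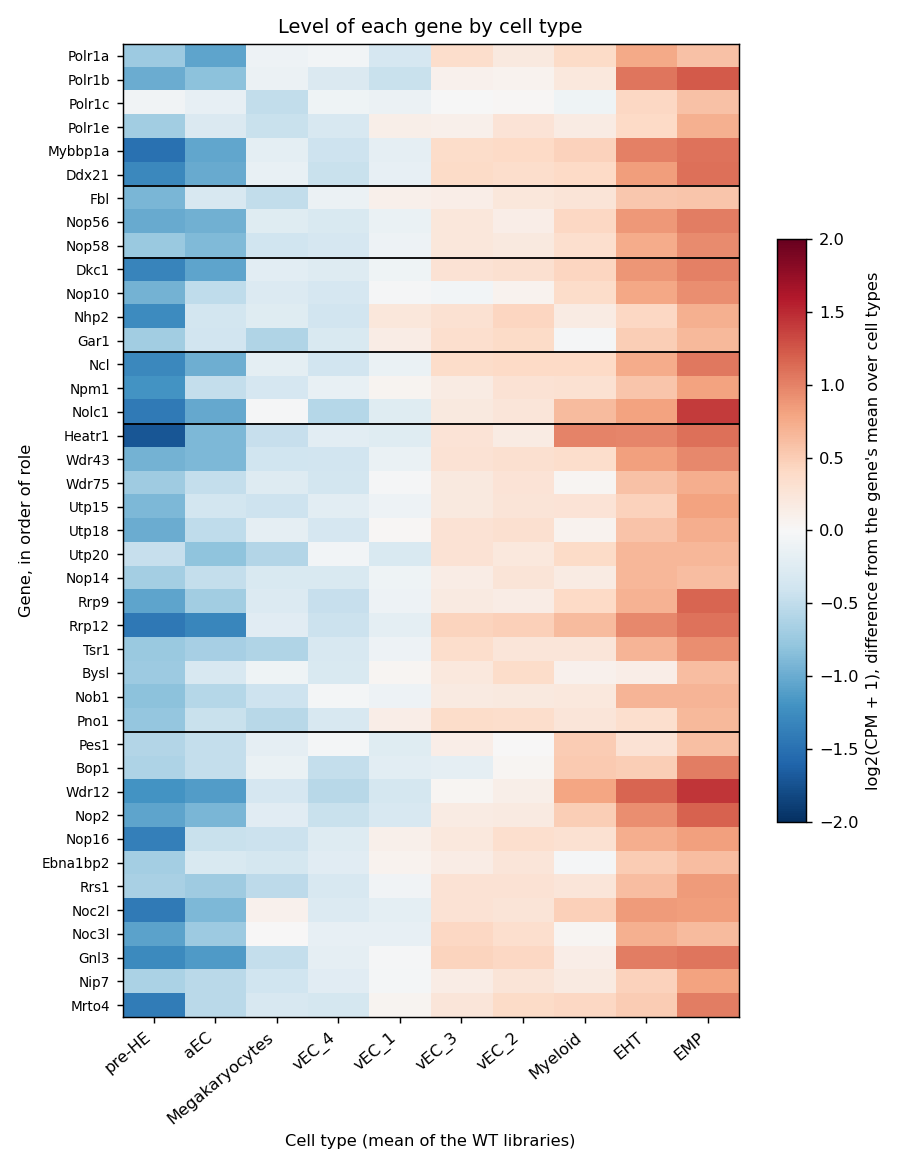
Level of each of the 41 genes (rows, in order of role, with lines between roles) in each cell type (columns), as the mean log2(CPM + 1) of the WT libraries minus that gene's mean over cell types. Rows shade from blue in pre-HE and aEC to red in EHT and EMP, and Polr1c varies least.

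The step from aEC to pre-HE, which the authors place before the transition to blood, went with lower levels of several snoRNP and chaperone genes. Npm1 was 2509, 2710.3, 2750.3, 2898 and 3093 CPM in aEC and 1426, 1479.9, 1757, 1968 and 1886 CPM in pre-HE, without overlap. Its fitted log2 fold change was -0.82 ± 0.07 (SE; adjusted p = 1.8e-13) in edgeR's quasi-likelihood test with the library as a block. Nhp2, a core protein of the box H/ACA snoRNP that guides pseudouridine formation, fell most among the tested members, 267, 296, 295, 282 and 351 CPM in aEC against 127, 168, 162, 125 and 219 CPM in pre-HE, a log2 change of -1.07 ± 0.11 (SE; adjusted p = 2.1e-10). Nop16, a factor of the large subunit, was the other leading fall at -0.85 ± 0.18 (SE; adjusted p = 2.1e-04). All 4 box H/ACA genes (Dkc1, Nop10, Nhp2 and Gar1) and all 3 chaperones (Ncl, Npm1 and Nolc1) fell, as did 1 of 3 box C/D genes, Fbl, the methyltransferase fibrillarin. Fbl was 179.9, 173, 127, 127 and 248 CPM in aEC and 107, 117, 51.9, 98 and 187 CPM in pre-HE, which overlap between libraries but not within any. In all 17 of 38 tested members fell and 0 rose, where 21.1% of 8143 genes were called lower and 21.1% higher. The median log2 change was -0.35 over the members and 0.01 over all genes tested. Dkc1, Mybbp1a and Utp18 each lost their call in 9 of 15 alternatives and Nolc1 in 3. At an adjusted p under 0.05, 13 members and 2879 of 8143 genes were called. DESeq2 called 12 members and 2567 of 8143 genes. Markers of other cell types moved with this step: mesenchymal markers summed to 98 to 395 CPM in pre-HE and 0 to 5.99 CPM in aEC, with both tested genes of 6 called higher, and epithelial markers to 13 to 86.2 and 0.294 to 1.26 CPM, with 1 of 1 tested called higher. Of the S phase genes, 16 of 31 tested were lower and 0 higher. The part of these genes in the result was not tested.

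The remaining tested members did not pass the test at that step, which rests on 11 to 87 pre-HE cells per WT library. Nop56, the scaffold of the box C/D snoRNP, was 111, 103, 74.1, 83.8 and 119 CPM in aEC and 90.3, 70, 117, 79.9 and 122 CPM in pre-HE (log2 change -0.19 ± 0.15, SE; adjusted p = 0.35). Gnl3, nucleostemin, a GTP-binding nucleolar protein of stem and dividing cells, was 70.9, 69.6, 51.2, 55.2 and 73.7 CPM and 59, 42, 58.3, 55.3 and 77.2 CPM (log2 change -0.22 ± 0.17, SE; adjusted p = 0.33). Polr1b, Heatr1 and Rrp12 were too low in pre-HE to be tested, with 8, 8 and 9 UMIs over the 5 WT libraries. Polr1b, the second largest subunit of polymerase I, had 0 UMIs in pre-HE of WT 2 and WT 3, where a count of 0 allows up to 14 and 19.4 CPM; its aEC levels of 2.22 to 4.57 CPM lie below those limits.

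All 41 members rose from pre-HE to EHT. In that comparison 31.6% of 8467 genes were called higher and 30% lower, and the median log2 change was 1.74 over the members against 0.04 over all genes. Ncl was 687, 924, 674, 555 and 1127 CPM in pre-HE and 3637, 3191, 3518, 2892 and 3007 CPM in EHT, with every EHT library above every pre-HE library. Its log2 change was 2.13 ± 0.10 (SE; adjusted p = 1.7e-18). Dkc1, dyskerin, the pseudouridine synthase of the box H/ACA snoRNP, was 40.5, 46.7, 58.3, 35.6 and 57.9 CPM in pre-HE and 249, 223, 209, 223 and 224 CPM in EHT, also without overlap, a log2 change of 2.44 ± 0.16 (SE; adjusted p = 5.0e-15). Gnl3 was 328, 282, 313, 291 and 245 CPM in EHT (log2 change 2.39 ± 0.14, SE; adjusted p = 1.1e-15), and Nop56 389.5, 342, 365, 304 and 353 CPM (log2 change 1.96 ± 0.13, SE; adjusted p = 1.2e-14). Each of these EHT values exceeded every pre-HE value of its gene. Wdr12, of the complex with Pes1 and Bop1 that processes large subunit RNA, rose by 2.46 ± 0.17 (SE; adjusted p = 2.6e-14). With Dkc1 and Gnl3 it led the rises among genes with a mean log2 CPM of at least 5 that moved the same way in every library, which is how the leading genes of each comparison below were picked. Rrp12 at 2.57 ± 0.40 (SE; adjusted p = 1.4e-06) and Heatr1 at 2.55 ± 0.46 (SE; adjusted p = 1.5e-05) had larger values, on 9 and 8 pre-HE UMIs.

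Within the polymerase the rises were unequal in size. Polr1c rose by 0.50 ± 0.18 (SE; adjusted p = 0.016), from 53.4, 28, 45.4, 49 and 64.4 CPM to 68.9, 60.8, 72.7, 67.6 and 69 CPM, and Polr1e by 1.05 ± 0.27 (SE; adjusted p = 0.0016), from 16.6, 9.34, 13, 13.4 and 12.9 CPM to 30.9, 29.4, 25.9, 25.8 and 31.5 CPM. Polr1b reached 15.4, 12.5, 16.7, 10.9 and 19.5 CPM in EHT, a log2 change of 1.96 ± 0.48 (SE; adjusted p = 7.3e-04) that rests on 8 pre-HE UMIs. Mybbp1a, a nucleolar regulator of ribosomal RNA synthesis, rose by 2.38 ± 0.15 (SE; adjusted p = 4.8e-15) and Ddx21, an RNA helicase of polymerase I transcription and processing, by 2.27 ± 0.14 (SE; adjusted p = 4.8e-15). Heatr1, a small subunit factor needed for ribosomal RNA transcription, was 33.3, 26.9, 21.7, 13.3 and 15.7 CPM in EHT, with 8 UMIs over WT pre-HE. Pes1 was 29.5, 32.7, 19.4, 21.3 and 70.8 CPM in pre-HE and 70.9, 54.5, 61, 64.1 and 71.7 CPM in EHT, and WT 5 pre-HE lay within the EHT range. Its log2 change was 1.17 ± 0.22 (SE; adjusted p = 2.5e-05). Nop10, a small protein of the box H/ACA snoRNP, was 258, 280.1, 220.4, 218 and 296 CPM in pre-HE and 895, 993, 833, 645 and 822 CPM in EHT (log2 change 1.74 ± 0.10, SE; adjusted p = 5.9e-16). By role the median log2 change was 2.13 for the chaperones, 1.90 for polymerase I and its regulators, 1.80 for the large subunit, 1.76 for box H/ACA, 1.58 for box C/D and 1.48 for the small subunit.

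**Figure D3:**
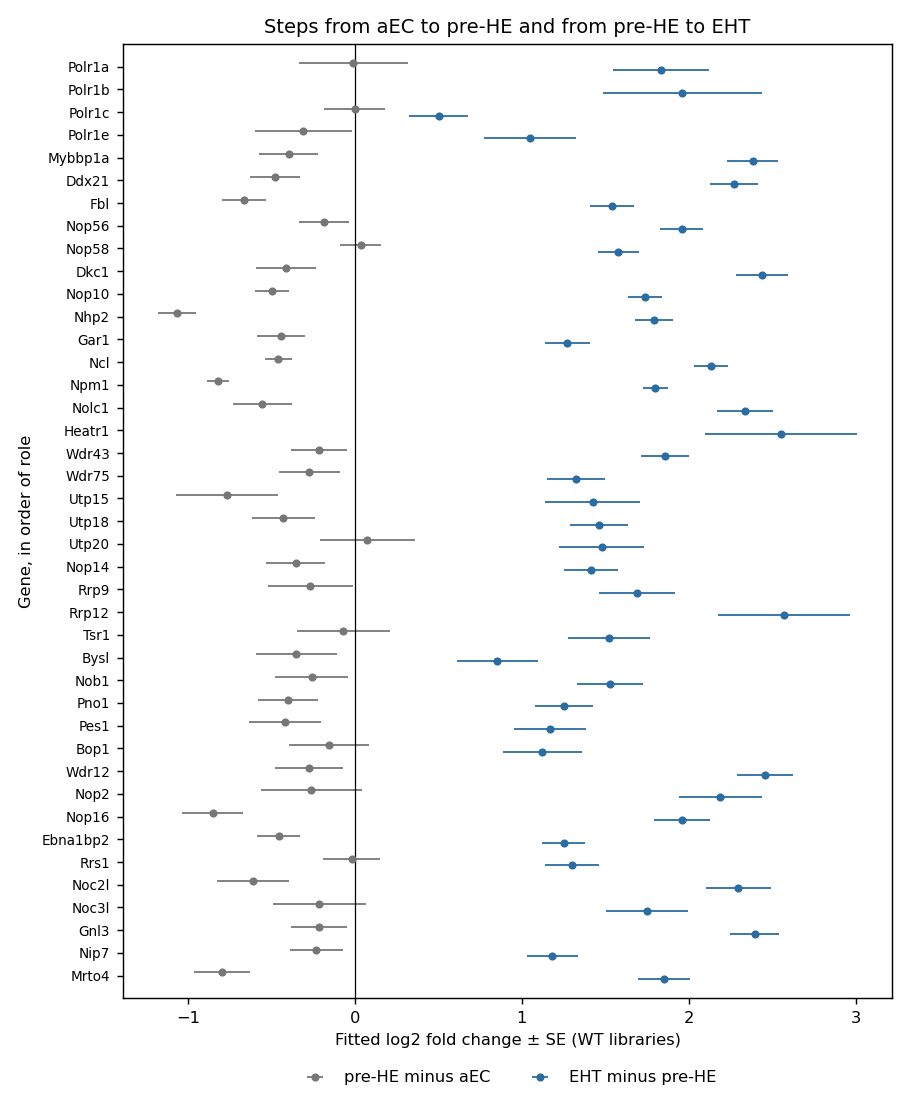
Fitted log2 fold change ± SE (horizontal axis) of each gene (vertical axis, in order of role) in the WT libraries, for pre-HE against aEC in grey and EHT against pre-HE in blue; Polr1b, Heatr1 and Rrp12 have no grey point because they were not tested there. Grey points lie at or left of 0 for nearly all genes and every blue point lies right of 0, with Polr1c nearest to it.

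Against aEC, all 41 members were likewise higher in EHT, where 35.8% of 9532 genes were called higher and 35.7% lower. The median log2 change was 1.19 over the members and 0.01 over all genes. The leading rises were Wdr12 at 2.15 ± 0.08 (SE; adjusted p = 2.8e-12), Gnl3 at 2.05 ± 0.09 (SE; adjusted p = 1.4e-11) and Mybbp1a at 1.92 ± 0.08 (SE; adjusted p = 1.1e-11), and the least was Bysl, bystin of the small subunit, at 0.38 ± 0.12 (SE; adjusted p = 0.0094). Nhp2, the leading fall at the step to pre-HE, was 457, 484, 536, 518 and 554 CPM in EHT, a log2 change of 0.65 ± 0.05 (SE; adjusted p = 2.5e-08) from aEC. Comparisons of EHT with pre-HE and with aEC share the EHT sums, and both steps through pre-HE share its sums.

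Within endothelium the members were lower in aEC than in vEC. Lower levels in aEC were called for 40 of 41 members, all but Polr1c, and higher levels for 0, where 30.5% of 11345 genes were called lower and 29.2% higher. The median log2 change was -0.74 over the members and -0.01 over all genes. Gnl3 at -1.35 ± 0.08 (SE; adjusted p = 3.4e-13), Dkc1 at -1.23 ± 0.08 (SE; adjusted p = 6.2e-12) and Mybbp1a at -1.19 ± 0.06 (SE; adjusted p = 5.4e-14) led the falls. The 4 venous clusters differed among themselves, from 7922 to 8849.9 CPM in vEC_4 to 11846 to 12599 CPM in vEC_2. Summed S phase and G2/M genes were 8218 to 9832 CPM in vEC_4, 14030.0 to 15496 CPM in vEC_2 and 7133 to 9928 CPM in aEC.

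EMP stood above each of the other blood cell types. EHT was lower than EMP for 32 of 41 members and higher for 0, where 27.6% of 9252 genes were called lower and 28.8% higher, with medians of -0.28 over the members and 0.01 over all genes. Nolc1, a chaperone that binds snoRNPs, differed most, with 386, 406, 327, 283 and 349 CPM in EMP and 273, 254, 231, 174 and 227 CPM in EHT, a log2 change of -0.70 ± 0.05 (SE; adjusted p = 2.7e-08). Bop1 at -0.63 ± 0.08 (SE; adjusted p = 1.1e-05) and Mrto4, a large subunit factor, at -0.62 ± 0.06 (SE; adjusted p = 4.4e-07) followed. The 9 members without a call were Polr1a, Polr1b, Heatr1, Utp20, Nop14, Rrp12, Nob1, Noc2l and Noc3l; Rrp12, for one, had a log2 change of -0.23 ± 0.13 (SE; adjusted p = 0.18).

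In Myeloid cells 39 of 41 members were lower than in EMP and 0 higher, where 29% of 10267 genes were called lower and 32.1% higher, with medians of -0.59 and 0.02. The 2 without a call were Heatr1 at -0.03 ± 0.10 (SE; adjusted p = 0.81) and Pes1 at -0.06 ± 0.07 (SE; adjusted p = 0.49). Gnl3 led at -0.91 ± 0.08 (SE; adjusted p = 2.5e-06), followed by Rrp9, of the U3 snoRNP, at -0.80 ± 0.12 (SE; adjusted p = 1.9e-04) and Nolc1 at -0.73 ± 0.08 (SE; adjusted p = 1.4e-05). The summed level was 10722, 10678, 13494, 12956 and 14397 CPM in WT 1 to WT 5. It was lowest in WT 1 and WT 2, which held the most Myeloid cells (282 and 355). Erythroid markers were higher in Myeloid cells than in EMP for 4 of 5 tested, endothelial for 4 of 7 and venous for 3 of 3. In these lists 0 were lower. Of 4 tested megakaryocyte markers 1 was higher and 3 lower, and both epithelial markers tested were lower. The part of these markers was not tested. In Megakaryocytes all 41 were lower than in EMP, where 29.5% of 9370 genes were called lower and 29.5% higher, with medians of -1.17 and -0.02. WT 3 had 5 Megakaryocytes and was left out of that comparison. Endothelial markers were higher in Megakaryocytes for 7 of 7 genes (331 to 570.2 CPM in sum, against 41.2 to 161 CPM in EMP), erythroid markers for 5 of 6 tested (333 to 6818 against 5.81 to 193 CPM) and venous markers for 3 of 3 tested, and their part in the result was not tested. Wdr12 at -1.72 ± 0.18 (SE; adjusted p = 5.2e-05), Tsr1, a late small subunit factor, at -1.47 ± 0.20 (SE; adjusted p = 2.4e-04) and Rrp9 at -1.44 ± 0.12 (SE; adjusted p = 1.8e-05) led, and Noc3l had the smallest value, -0.41 ± 0.17 (SE; adjusted p = 0.068). The summed level was 5476, 8709, 9139 and 8987 CPM in WT 1, WT 2, WT 4 and WT 5, and WT 1 stood below the others. In WT 1 Megakaryocytes the S phase and G2/M genes were also lowest, at 7121, 12404, 11921 and 10504 CPM in the same order of libraries; their part in the result was not tested.

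Genes of the same pathway outside the 41 were counted in lists chosen by name, with earlier results of these data known. Of 91 other ribosome biogenesis genes, 24 of 83 tested fell from aEC to pre-HE and 2 rose, where 21.1% of all genes were called lower and 21.1% higher. From pre-HE to EHT 80 of 90 rose and 0 fell, where 31.6% of all genes were called higher, with a median of 1.03. Nat10, an acetyltransferase of ribosomal RNA, at 3.08 ± 0.37 (SE; adjusted p = 1.2e-08), and Naf1, which loads the box H/ACA snoRNP, at 2.16 ± 0.22 (SE; adjusted p = 3.7e-10), rose most. In EHT 67 of 91 were lower than in EMP and 1 higher, where 27.6% of all genes were called lower. Polymerase I machinery outside the members rose from pre-HE to EHT in 7 of 9 tested genes and fell in 0, and fell from aEC to pre-HE in 1 of 9. The rises were led by Cd3eap, a polymerase I subunit, at 1.72 ± 0.21 (SE; adjusted p = 1.3e-08).

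The Myc family genes had different patterns. Mycn was 43.2, 39.6, 21.9, 40.9 and 36.4 CPM in aEC, 3.69, 18.7, 0, 1.58 and 12.9 CPM in pre-HE and 197, 175, 136, 169.7 and 112 CPM in EHT, without overlap between EHT and the others, but 13.9, 6.52, 8.72, 10.3 and 5.56 CPM in EMP. Myc was 9.45, 12, 1.83, 5.77 and 7.64 CPM in aEC, 16.6, 4.67, 19.4, 27.7 and 12.9 CPM in pre-HE, 101, 70.8, 53.5, 38.7 and 50.5 CPM in EHT and 112, 108, 122, 89.4 and 92.3 CPM in EMP. Mycn thus was high where Myc was moderate (EHT), and low where the members were highest (EMP). The log2 change from aEC to pre-HE was -3.21 ± 0.37 (SE; adjusted p = 1.5e-09) for Mycn and 1.36 ± 0.35 (SE; adjusted p = 0.0017) for Myc. From pre-HE to EHT they rose by 5.23 ± 0.30 (SE; adjusted p = 3.0e-16) and 1.56 ± 0.28 (SE; adjusted p = 1.4e-05). From EMP to EHT Mycn was higher by 4.06 ± 0.12 (SE; adjusted p = 4.7e-12) and Myc changed by -0.85 ± 0.13 (SE; adjusted p = 5.0e-05).

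S phase and G2/M genes often moved with the members between cell types, so cells were also compared within broad classes of cycle gene counts. Against EMP, 24 of 32 S phase genes were lower in Myeloid cells and 0 higher, but 8 of 50 G2/M genes lower and 21 higher. In Megakaryocytes 30 of 32 S phase genes were lower, and 15 of 50 G2/M genes lower and 2 higher. Of all genes, 29% and 29.5% were called lower in these comparisons, and 32.1% and 29.5% higher. Each cell was thinned to 5000 UMIs (101 shallower cells were left out), and classes were set, after the data were seen, at under 30, 30 to 59, and 60 or more UMIs of S phase and G2/M genes. Among WT cells of the middle class, member UMIs per cell were 32.2 to 40.8 in aEC, 69.6 to 75.5 in EHT and 92 to 93.5 in EMP as library means. In the highest class they were 29.6 to 36.2 in aEC, 76.1 to 83.2 in EHT and 84.2 to 92.2 in EMP. EHT lay above aEC within these classes in each library with a value. The classes are broad, so cells of a class can still differ in cycle counts. The part of the cell cycle in the difference was not tested. In the lowest class pre-HE was 18.3 to 22 and aEC 26.2 to 27.1, so that pre-HE was below aEC there too, in the 3 WT libraries with at least 10 pre-HE cells. The pre-HE cells were mostly of that class: 73.7% in WT, against 43.5% of aEC. In the lowest class of Megakaryocytes the means were 10.9 to 16.9, and in the highest 49.7 to 57.8.

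**Figure D4:**
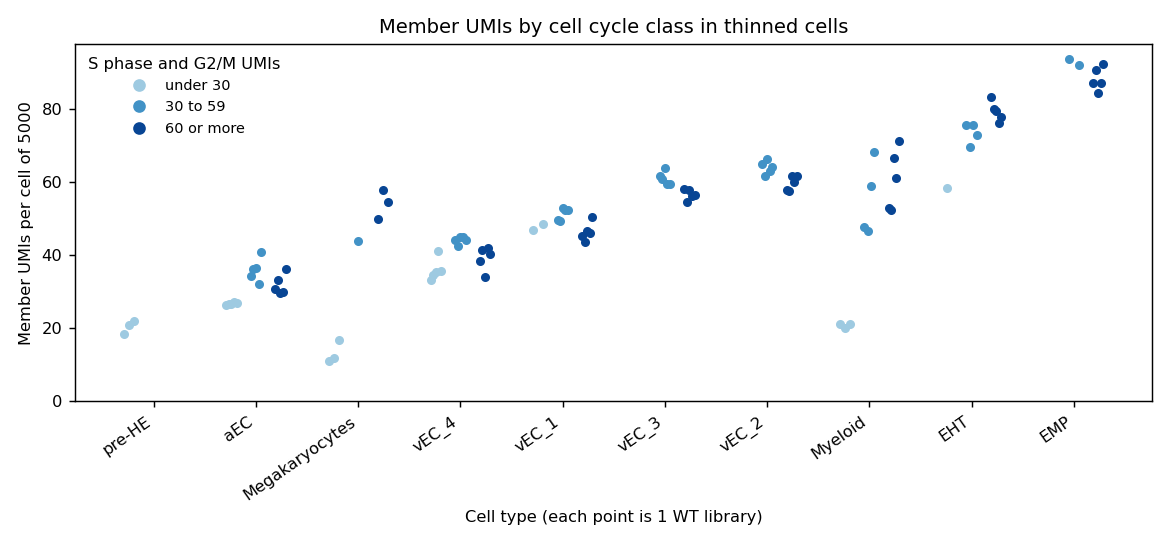
Mean member UMIs per cell of 5000 (vertical axis) in each cell type (horizontal axis) and class of S phase and G2/M UMIs (light to dark blue); each point is 1 WT library with at least 10 cells in the class. Within a class EHT and EMP lie above the endothelial types, and Megakaryocytes split between the lowest class and the others.

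Among pre-HE, aEC, EHT and EMP the library medians over single thinned cells followed the order of the sums. The lower end of EMP did not. Megakaryocytes and Myeloid cells took other places than in the sums. The WT mean of the medians was 30.1 in Megakaryocytes and 30.4 in aEC. It was 56 in Myeloid cells, below 56.9 in vEC_3 and 59.7 in vEC_2. The medians of member UMIs per cell were 19 to 24 in WT pre-HE, 28 to 35 in aEC, 71 to 77 in EHT and 87 to 95 in EMP. Cells with 40 or more member UMIs made up 0 to 6.25% of pre-HE, 16 to 35.5% of aEC, 96.8 to 100.0% of EHT and 91.1 to 99% of EMP across WT libraries, with EMP below EHT in each of the 5. The 10th percentile in EHT (50.6 to 56.6) lay above the 90th percentile in pre-HE (25 to 33) in every WT library. In EMP the 10th percentile was 48.6, 43.6, 62.8, 61.4 and 72 in WT 1 to WT 5, below that of EHT in WT 1 and WT 2 and above it in the others.

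In Mff_Cre embryos 4 of the 41 members were lower in EMP, and no member passed edgeR's test in the other cell types. The summed level in EMP was 18417, 18724, 18502, 18191 and 18580.1 CPM in WT 1 to WT 5 and 15811, 15258 and 15283 CPM in Mff_Cre 1 to 3, without overlap. Median UMIs per EMP cell were 47527, 52654, 52536, 53132 and 21434 in WT and 20501, 14516 and 20272 in Mff_Cre. Of the 41 members 4 were called and all 4 were lower, where 4.74% of 9172 genes were called in either direction; an unadjusted p under 0.05 was found for 31.7% of members and 17.3% of all genes. The median log2 change was -0.16 over the members and -0.00 over all genes.

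The 4 genes were Utp15, Utp18 and Wdr75 of the small subunit processome, which assembles on the nascent precursor, and Gnl3. Utp18 was 123, 126, 129, 119 and 116 CPM in WT and 86.2, 82.4 and 82.7 CPM in Mff_Cre, a log2 change of -0.50 ± 0.09 (SE; adjusted p = 0.028). Utp15 was 60.4, 46.8, 41.6, 44.9 and 44.5 CPM in WT and 31.2, 30.9 and 28 CPM in Mff_Cre, a log2 change of -0.61 ± 0.13 (SE; adjusted p = 0.041). Neither gene overlapped between genotypes in these libraries. Wdr75 was 122, 129, 119, 107 and 112 CPM and 89.6, 85.2 and 84 CPM (log2 change -0.39 ± 0.10, SE; adjusted p = 0.065), and Gnl3 302, 296, 350.1, 307 and 248 CPM and 232, 210.0 and 219 CPM (log2 change -0.39 ± 0.11, SE; adjusted p = 0.095), again without overlap. Npm1 was 6278, 6845, 6660.1, 7358 and 6777 CPM in WT and 5799, 5568 and 4985 CPM in Mff_Cre, without overlap. Ncl was 4352, 4050.3, 4127, 3604 and 3913 CPM in WT and 3269, 2647 and 3602 CPM in Mff_Cre, ranges that just miss each other. Neither was called, with log2 changes of -0.26 ± 0.10 (SE, adjusted p = 0.19) for Npm1 and -0.28 ± 0.12 (SE, adjusted p = 0.25) for Ncl. Fbl went the other way at 381, 453 and 333 CPM in Mff_Cre against 304, 306, 283, 289.7 and 387 CPM in WT, without a call (log2 change 0.36 ± 0.13, SE; adjusted p = 0.18).

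**Figure D5:**
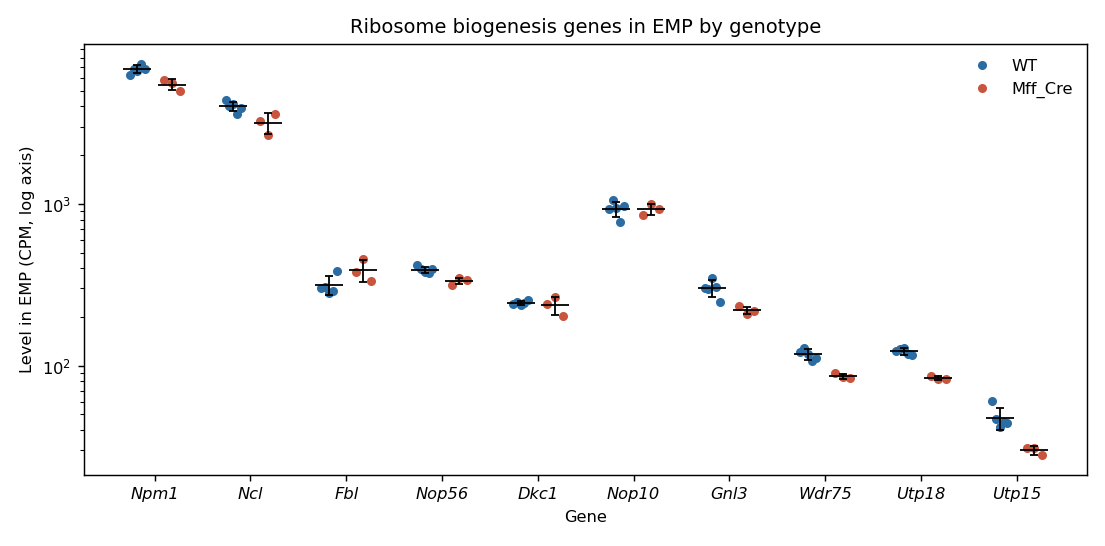
Level in EMP (vertical log axis, CPM) of 10 of the genes (horizontal axis). Each point is 1 library, WT in blue and Mff_Cre in red, with the mean ± SD; Gnl3, Wdr75, Utp18 and Utp15 do not overlap between genotypes, while Fbl, Dkc1 and Nop10 do.

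These calls depended on which libraries were set against which. Without Mff_Cre 1 there were 0 calls among the members, where 44 of 9569 genes were called. Without WT 5 there were 7 calls among the 41 members, where 828 of 8999 genes were called. With sequencing depth per cell as a covariate, 0 members were called, where 17 of 9172 genes were. The members' median log2 change was -0.26 in that fit and -0.24 with WT 5 as the only WT library, against -0.16. The fit with WT 5 alone has 1 library in its WT arm, which is assumed to vary like the Mff_Cre libraries. Only its size of change is given. Depth and genotype were nearly aligned, and WT 5 was the only WT library with a depth near that of the Mff_Cre libraries. Thinned EMP cells had a median of 92 member UMIs in WT 5, against 74.5 to 76 in the Mff_Cre libraries. Beyond the depth covariate, the part of depth in the result was not tested. Markers of other blood cells moved with the genotype in EMP. Erythroid markers summed to 77.6, 52.9, 5.81, 193 and 86.8 CPM in WT and 1862, 288 and 799 CPM in Mff_Cre, with 5 of 6 tested called higher, and myeloid markers to 1202, 1158, 1157, 1117 and 887 CPM and 1616, 1543 and 1423 CPM, with 3 of 5 called higher. Cell cycle genes moved too: 4 of 50 G2/M genes were called lower and 0 higher, with a median log2 change of -0.18, and thinned EMP cells with 60 or more cycle UMIs made up 85.1% in WT and 59.7% in Mff_Cre. Within that class, member UMIs per cell were 84.2 to 92.2 in WT and 74.2 to 77.7 in Mff_Cre libraries, without overlap. The part of the marker genes in the result was not tested. Among 91 other ribosome biogenesis genes 7 were lower in Mff_Cre EMP and 0 higher, where 4.74% of 9172 genes were called in either direction.

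In the other cell types 0 members were called. In EHT the summed levels of 16389.6, 15608, 16105, 15046 and 15019 CPM in WT and 14860.5, 13736 and 14129 CPM in Mff_Cre did not overlap, but with 0 of 41 members called where 0.127% of genes were, 2 members had an unadjusted p under 0.05, and 0 passed in DESeq2. In aEC 0 of 40 members were called where 0% of genes were (3 with an unadjusted p under 0.05; DESeq2 0), and in vEC 0 of 41 where 0.0164% were (15 unadjusted; DESeq2 1). The 15 are 36.6% of the members, where 16.4% of all genes had an unadjusted p under 0.05, and 31 of the 41 were fitted higher in Mff_Cre. In pre-HE 0 of 20 members were called where 0.489% of genes were (0 unadjusted; DESeq2 0), and the summed level was 4935, 4595 and 4226 CPM in Mff_Cre. In Myeloid cells 0 of 41 were called where 3.26% were (3 unadjusted, DESeq2 0), and in Megakaryocytes 0 of 40 where 0.206% were (2 unadjusted, DESeq2 0). The unadjusted counts were 4.88% of members in EHT, 7.5% in aEC, 7.32% in Myeloid cells and 5% in Megakaryocytes. Of all genes the shares were 9.49%, 10.5%, 15.4% and 8.83%, and 7.14% in pre-HE. DESeq2 called 43 of 8670 genes in EHT, 11 of 9540 in aEC and 264 of 12205 in vEC. It called 9 of 3682 in pre-HE, 584 of 11479 in Myeloid cells and 86 of 7770 in Megakaryocytes. Summed levels in aEC, 6552, 7018 and 6138 CPM, lay within the WT range of 5992 to 7390.3 CPM.

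The difference between genotypes in the EHT to aEC contrast was tested in 1 model. There 0 of 41 members were called, where 0.0298% of genes were. An unadjusted p under 0.05 was found for 5 members (12.2%), against 5.49% of all genes. DESeq2 called 0 members and 2 of 10053 genes. Within Mff_Cre libraries the log2 ratio of EHT to aEC of the sum was 1.12 ± 0.13 (SD, n = 3), and of EHT to pre-HE 1.64 ± 0.09 (SD, n = 3), against 1.29 ± 0.16 (SD, n = 5) and 1.78 ± 0.22 (SD, n = 5) in WT. For the Myeloid to EMP contrast 0 of 41 were called, where 0.867% of genes were. An unadjusted p under 0.05 was found for 12 members (29.3%), against 10.2% of all genes. DESeq2 called 0 members and 67 of 11070 genes for this contrast.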

How the data were processed

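CD31+ AGM cells of 8 pooled-embryo libraries were analysed. The authors counted reads with Cell Ranger 3.0.2 on mm10, per the submitters' processing notes, filtered cells by gene number and mitochondrial share, integrated and clustered them, and deposited raw counts (UMIs) per gene and cell with a library and a cluster name for each cell. How doublets were treated after sorting is not given in the sources used here, and no doublet caller was run. Depth is given above, and a count of 0 allows 3 counts, which covers counting error only.

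Counts were summed per library and cell type where at least 10 cells were present, without antibody tags and transgene rows. Sums were tested over all genes with edgeR 4.0.16 in R 4.3.3 (TMM, filterByExpr, quasi-likelihood F test, two-sided, Benjamini-Hochberg adjusted p under 0.1). Cell types were compared in WT only, blocking on the library, and genotypes as 5 against 3 libraries without a block. Genotype differences of a contrast were tested as an interaction. Libraries are the replicates.

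The members and lists were chosen with earlier results of these data known. All 41 genes could be named; a panel of 11 and the 3 leading changes in each direction (mean log2 CPM of at least 5, same direction in every library or no overlap) were given in detail, with at most 4 genes of any other list. Alternatives were RLE scaling, DESeq2 1.42.0, no filter, another threshold or adjustment, at least 20 cells, thinning to 5000 UMIs, leaving out 128 ribosomal, mitochondrial and rRNA-like genes or cells of very high UMIs, the block, a depth covariate, WT 5 as the only control, and leaving out each library. The fits were tested on simulated data.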

Additional observations from a re-analysis of the deposited data

Results flagged for a closer look

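Of 54 sets of library values examined, 4 held 1 library far from the rest of its group by Dixon's criterion, which chance meets in about 1 in 20 groups. The summed level in pre-HE was 5588 CPM in WT 5, above the other 4 WT libraries. Pes1 in pre-HE was 70.8 CPM in WT 5, also above the others. In EMP, Fbl was 387 CPM in WT 5, the highest of the WT libraries. The summed level in Megakaryocytes was 5476 CPM in WT 1, below the other 3 WT libraries with a value.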

How the results depend on the processing

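Among values called under either setting, directions reversed in 4 cases, all with cells thinned to 5000 UMIs: the log2 change became 0.074 for Pno1 in pre-HE against aEC, -0.20 for Bysl in EHT against aEC, and 0.082 for Fbl and 0.035 for Gnl3 in EHT against EMP. Over single members, 10007 alternative values kept their direction and side of the threshold, 218 lost the call, 83 gained one, 4 reversed with a call, and 620 changed sign without a call under either setting, most often with WT 5 as the only WT library (132) or the depth covariate (98). As UMIs per cell, which keep the RNA content of a cell, the summed log2 ratios to aEC were -1.04 for pre-HE, 1.28 for Megakaryocytes, 0.87 for vEC_1, 1.34 for vEC_3, 1.47 for vEC_2, 2.14 for Myeloid cells, 2.00 for EHT and 2.83 for EMP, with 3.04 for EHT to pre-HE and -0.83 for EHT to EMP. Members called under Bonferroni adjustment were 4 in pre-HE against aEC (1088 of 8143 genes called) and 11 in EHT against EMP (1560 of 9252). They were 17 in Myeloid cells against EMP (1470 of 10267), 20 in Megakaryocytes against EMP (951 of 9370) and 0 by genotype in EMP (15 of 9172). With thinned cells they were 10 in pre-HE against aEC (1708 of 4661 genes called), 18 in EHT against EMP (1609 of 4297) and 0 by genotype in EMP (161 of 5690). For the genotype difference of Myeloid cells against EMP there was 1 (103 of 7237), and 11 with no filter (416 of 18843). By genotype in EMP, 2 members were called at an adjusted p under 0.05, where 164 of 9172 genes were. With the median UMIs as a covariate 0 members were called, where 17 of 9172 genes were. The members' median log2 change was -0.26 with that covariate and -0.24 with WT 5 as the only WT library, an arm of 1, against -0.16. In vEC by genotype, DESeq2 called 1 member and 264 of 12205 genes.

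Leaving out each library in turn gave 12 to 16 members in pre-HE against aEC, with 2592 of 8115 to 3543 of 9059 genes called. In EHT against EMP it gave 30 to 33, with 4567 of 9055 to 5140 of 9467 genes called. By genotype it gave 0 to 4 in aEC, 0 to 12 in vEC, 0 to 7 in EMP, 0 to 4 in Myeloid cells and 0 to 1 for the genotype difference of Myeloid cells against EMP. Each upper value by genotype came without WT 5, and the 0 in EMP without Mff_Cre 1. The cause was not tested. Without WT 5, 408 of 9518 genes were called in aEC, 1647 of 12216 in vEC and 828 of 8999 in EMP. In Myeloid cells 1421 of 11586 genes were called, and 134 of 11001 for the genotype difference of Myeloid cells against EMP. With the replicate block over libraries 1 to 3, genotype gave 5 members in aEC (731 of 9141 genes called) and 1 in EHT (450 of 7921). It gave 17 in vEC (2351 of 12050), 11 in EMP (953 of 8781) and 3 in Myeloid cells (1333 of 11501). Same-numbered libraries did not deviate together in every pair (correlations of -0.0018, 0.20 and 0.14 in aEC, -0.026, 0.090 and 0.089 in EHT, -0.036, 0.32 and 0.28 in vEC, -0.17, 0.20 and 0.085 in Myeloid cells, and 0.097, 0.091 and 0.17 in EMP, where all were positive but WT 2 correlated best with Mff_Cre 1), so the numbers were not taken as pairs. The few pre-HE cells limit the genes that could be tested there.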

Other observations

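Targets of p53, a tumour suppressor that nucleolar stress is known to activate, were also counted. From pre-HE to EHT, 2 of 10 tested targets were higher and 5 lower, where 31.6% of 8467 genes were called higher and 30% lower. The largest changes called were falls, in Plk2, Trp53inp1, Btg2 and Phlda3. From aEC to pre-HE, 2 of 11 tested targets were higher and 3 lower, where 21.1% of 8143 genes were called each way. Cdkn1a changed there by -3.68 and Btg2 by 2.22 (log2). From pre-HE to EHT, all 32 S phase genes and 45 of 50 G2/M genes were higher.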
